A study of Mus musculus with 24 samples.

Results

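The genes described here are 39 markers of neurons, neural progenitors and striated muscle, out of 19505 named genes measured on mouse expression arrays. They were chosen by name: each is a listed gene of brain, heart or skeletal muscle whose probe set names that gene and no other, and all 39 had 1 probe set. They comprise 19 neuronal genes, 8 neural progenitor genes and 12 genes of heart and skeletal muscle. The question was how much signal from tissues other than liver the arrays of embryonic day 14.5 (ED14.5) held beside those of postnatal liver.

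The study compared grandoffspring of control grandfathers with those of obese grandfathers, a line the labels call SL without expanding the name. All animals were of the outbred strain ICR-CD1. There were 6 groups of 4 arrays: control and SL samples labelled whole embryo at day 7.5 (ED7.5), control and SL samples labelled whole embryo at ED14.5, and control and SL liver at postnatal day 7.5 (PD7.5). Litters and grandfathers are not named for single samples, so p-values measure only the spread between these samples, which may share either.

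Neurons carry microtubule proteins, neurofilaments and synaptic vesicle proteins that most other cells lack, and neural progenitors are held in their state by Notch signalling through its target genes. Striated muscle is built from sarcomeric myosins, troponins, actin and titin, with separate isoforms for atrium, ventricle and skeletal fibre. In a mouse fetus at mid-gestation the brain, heart and body muscle are large and express these genes strongly, while the fetal liver is a site of blood formation and plasma protein synthesis. In RNA of a bulk sample, fewer cells of a type and less RNA per cell cannot be told apart.

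Values are on a log2 scale. A probe set was taken as above background on an array where it exceeded 75% of that array's 5222 negative control probe sets, so 25% of the negative controls pass by definition. The background ran from 5.05 to 6.53 over the 24 arrays, and was highest on ED7.5 control replicate 2 (6.53) and ED14.5 control replicate 1 (6.51). Between 48.3% and 64.1% of all genes lay above it.

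The ED14.5 samples, labelled whole embryo, had the markers of liver. All 22 hepatocyte markers measured were above background on all 4 arrays of each ED14.5 and liver group. So were 12 of 12 markers of definitive erythroid cells in both ED14.5 groups and in control liver. In SL liver 11 of these 12 were above background on at least 3 of 4 arrays. Alb, the main plasma protein of liver, averaged 13.51 ± 0.0204 at ED14.5 and 13.80 ± 0.0483 in liver (SD, n = 4 control arrays each). By limma 21 of the 22 hepatocyte markers were lower at ED14.5 than in liver in control and in SL arrays (adjusted p under 0.05). Over all genes 20.5% and 21.4% were lower. The median log2 difference of these markers, ED14.5 minus liver, was −0.91 and −0.90. Alb was among the 21, but in each arm it was no longer called in 7 of 8 fits that left out 1 array. Nor was it called in either arm with a fit of all 24 arrays, a block for the replicate number or quantile normalization. All 12 erythroid markers were higher at ED14.5, against 24.6% and 24.4% of all genes, with medians of 2.97 and 3.41. The ED7.5 samples, also labelled whole embryo, had 11 of 12 markers of decidua, the uterine lining of pregnancy, above background on every array. In the ED14.5 control group 4 of those 12 were above background on at least 3 of 4 arrays.

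The brain, heart and muscle genes were mostly below background at ED14.5. In the ED14.5 control group 2 of 39 (5.13%) were above background on at least 3 of 4 arrays, and in the ED14.5 SL group 4 of 39 (10.3%). The liver gave 5 of 39 (12.8%) in control and 4 of 39 (10.3%) in SL arrays. Over all genes the same count was 51.5% in both ED14.5 groups, 53.7% in control liver and 53.0% in SL liver. At ED7.5 it was 9 of 39 (23.1%) in control and 10 of 39 (25.6%) in SL arrays, against 56.8% and 57.6% of all genes. The single array counts at ED14.5 were 1, 5, 4 and 7 of 39 in control replicates 1 to 4 and 5, 3, 6 and 6 in SL replicates 1 to 4. In liver they were 6, 5, 8 and 5 in control and 7, 5, 7 and 4 in SL replicates, so the ED14.5 and liver arrays overlapped. ED14.5 control replicate 1, the array with 1 member above background, was the one with the high background. At ED7.5 the control arrays had 14, 2, 9 and 13 and the SL arrays 11, 13, 10 and 10, and the low control count was that of replicate 2, which also had a high background. With replicate 2 among any 3 ED7.5 control arrays, 2 members were above background on all 3, and without it 9 were.

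**Figure D1:**
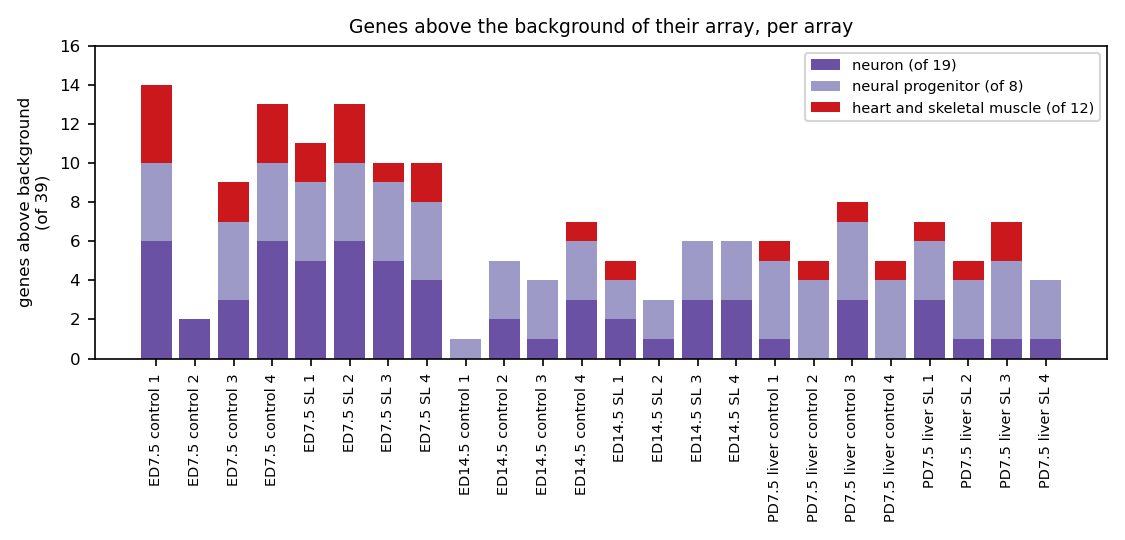
Number of the 39 genes above background (vertical axis, stacked by role) on each of the 24 arrays (horizontal axis, by group and replicate). The ED14.5 bars reach 1 to 7 and the liver bars 4 to 8, while 7 of the 8 ED7.5 bars reach 9 to 14 and ED7.5 control replicate 2 reaches 2.

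Of the 39 genes, 24 were above background on no array of the 24 and 15 on at least 1. On no ED14.5 array were 30 of them above background, and on no liver array 28. Notch1 was the 1 member above background on all 16 ED14.5 and liver arrays. By role, 0 of 19 neuronal genes were above background on at least 3 of 4 arrays in ED14.5 control, 2 of 19 in ED14.5 SL, and 0 of 19 in each liver group. Among the 8 progenitor genes it was 2 in each ED14.5 group, 4 in control liver and 3 in SL liver. Among the 12 heart and skeletal muscle genes it was 0 in each ED14.5 group and 1 in each liver group. Both ED7.5 groups had 4 of 8 progenitor genes, with 3 and 5 of 19 neuronal genes and 2 and 1 of 12 muscle genes in control and SL arrays.

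**Figure D2:**
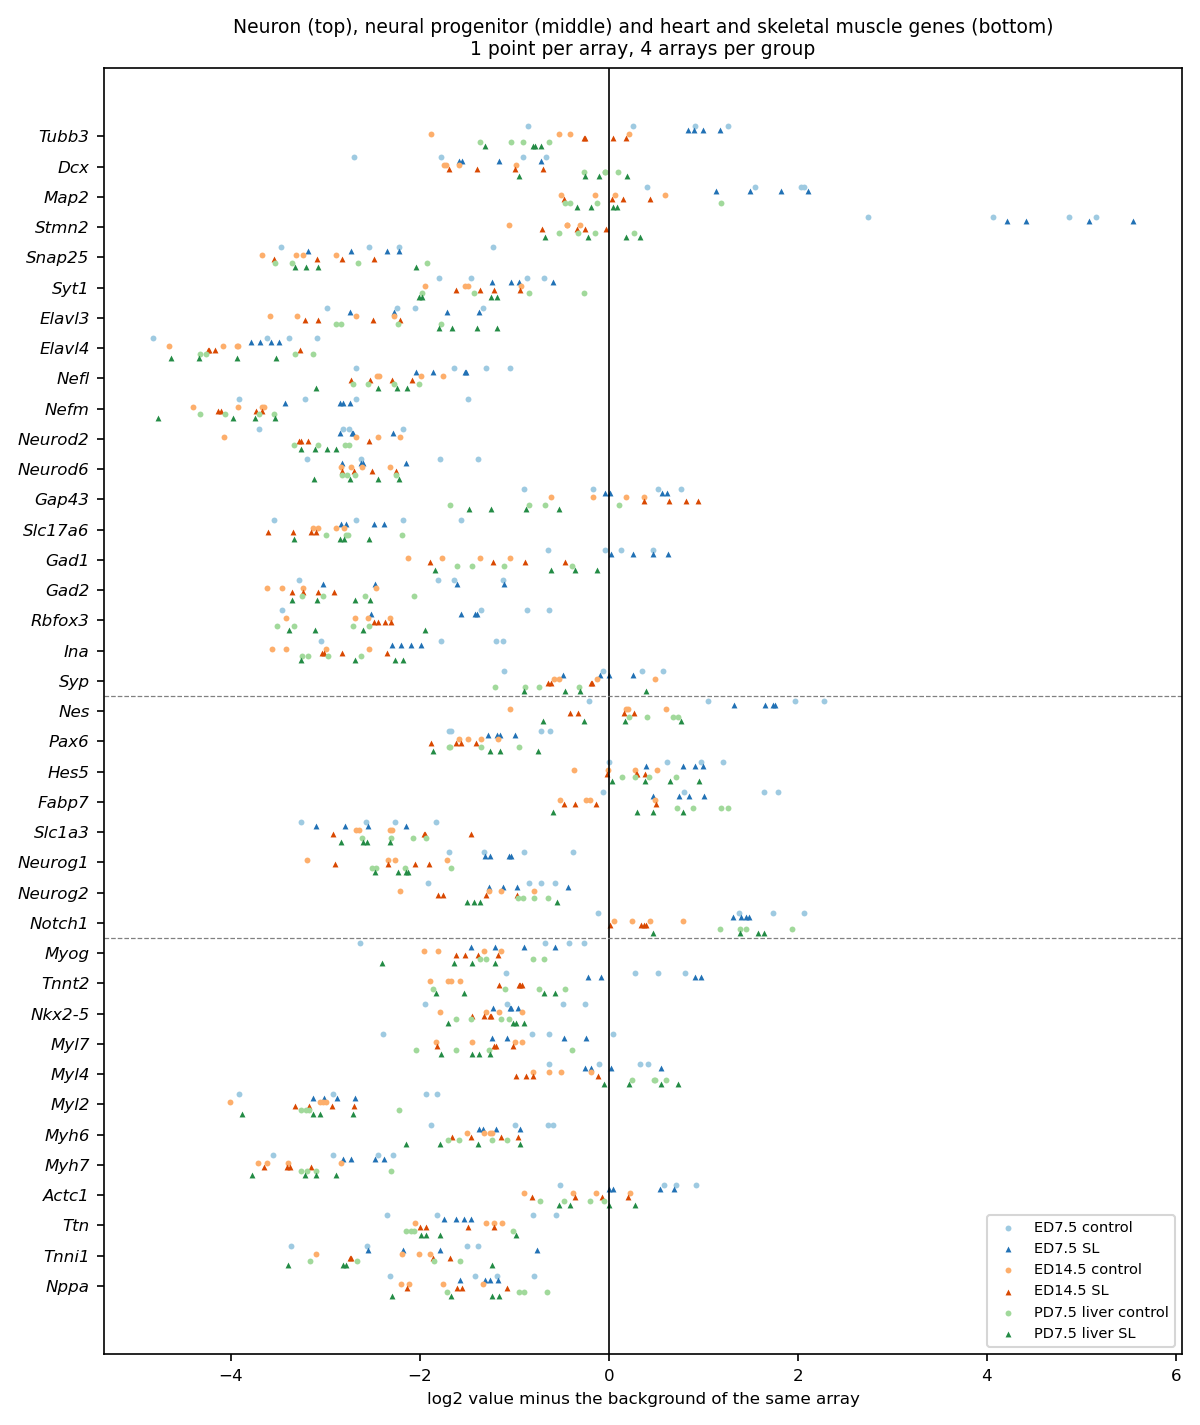
Log2 value minus the background of the same array (horizontal axis) for each of the 39 genes (rows, by role), with 1 point per array and colour and shape for the group. Stmn2 stands far to the right on all 8 ED7.5 arrays, and 24 genes lie left of the line at 0 on every array.

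The 24 genes below background on every array came from all 3 groups. Among neuronal genes these were the synaptic proteins Snap25 (2.46 to 3.85 over the 24 arrays) and Syt1 (3.93 to 5.38), the RNA-binding proteins Elavl3, Elavl4 (1.40 to 2.72) and Rbfox3, and the filament proteins Nefl (3.09 to 4.22), Nefm (1.26 to 3.56) and Ina. The neuronal transcription factors Neurod2 (2.44 to 3.77) and Neurod6, the vesicular glutamate transporter Slc17a6 and the GABA synthesis enzyme Gad2 (2.36 to 4.39) were below it too. Among progenitor genes it held for Pax6, the glutamate transporter Slc1a3 (2.51 to 4.82) and the proneural factors Neurog1 (3.19 to 4.84) and Neurog2 (4.19 to 5.35). In muscle it held for Myog, a regulator of skeletal muscle differentiation, the cardiac factor Nkx2-5 (4.18 to 5.06) and the sarcomere genes Myl2, Myh6, Myh7 (2.26 to 3.34), Ttn and Tnni1 (2.79 to 4.73). Nppa, the atrial natriuretic peptide, was below background as well. A probe set below background sets only a bound on a gene's level.

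Stretches of 250 bases before the start are shown for 3 genes with a called or leading difference below: Notch1, above background on every ED14.5 and liver array, Myl4, higher in liver, and Tnnt2, the muscle gene with the smallest p between SL and control at ED14.5. They come from RefSeq (GRCm38.p6), 5′ to 3′ on the strand of the gene, and 34 of the 39 genes matched an entry of that table. Stmn2, Gap43, Nefm, Snap25 and Nefl are named only. The motifs searched on both strands were the MCAT element CATTCC, the E-box CAGCTG and the TATA box TATAAA, bound in muscle genes by TEAD factors, by myogenic factors and at many promoters by the basal machinery, in that order, together with the neuronal silencer's left part TTCAGCACC and the CArG box of serum response factor. Capitals mark matches.
Notch1, chr2:26503823-26504072, minus strand: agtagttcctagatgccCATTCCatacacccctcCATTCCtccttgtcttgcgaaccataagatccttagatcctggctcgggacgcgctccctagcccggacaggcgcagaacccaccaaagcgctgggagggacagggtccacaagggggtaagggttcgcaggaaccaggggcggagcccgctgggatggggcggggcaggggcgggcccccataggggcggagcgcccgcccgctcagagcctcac
Myl4, chr11:104550413-104550662, plus strand: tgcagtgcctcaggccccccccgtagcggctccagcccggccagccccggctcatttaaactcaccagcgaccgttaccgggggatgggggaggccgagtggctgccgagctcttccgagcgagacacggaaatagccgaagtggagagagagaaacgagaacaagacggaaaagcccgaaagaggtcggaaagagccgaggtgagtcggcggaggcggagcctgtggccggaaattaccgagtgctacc
Tnnt2, chr1:135836084-135836333, plus strand: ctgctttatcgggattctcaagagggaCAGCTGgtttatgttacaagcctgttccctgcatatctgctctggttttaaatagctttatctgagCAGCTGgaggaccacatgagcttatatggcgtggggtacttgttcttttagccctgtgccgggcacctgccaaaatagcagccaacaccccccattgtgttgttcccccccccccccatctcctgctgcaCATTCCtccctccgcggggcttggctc
The Notch1 stretch held the MCAT element at 233 and 216 bases before the start, and the Tnnt2 stretch held E-boxes at 223 and 157 and an MCAT element at 27 bases. Tnnt2 has 2 starts in the table and the more upstream is shown. The letters searched were not in the Myl4 window. The MCAT element was in 8 of 34 members' windows and in 12.64% of 32851 windows of the same length, the E-box in 8 of 34 and 13.0%, and the TATA box in 6 of 34 and 12.37%. The CArG box was in 4 of 34 (Elavl4, Hes5, Myl7 and Actc1) and 1.467%, and the silencer part in 0 of 34 and 0.3014%. A member was counted if any of its windows matched, while the share over all windows counts each window, so the units differ and the shares cannot be compared directly. A match is a description of letters only, and the motifs do not overlap each other in the stretches shown.

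The comparison of ED14.5 with liver in control samples called 7 of the 39 genes. At ED14.5 3 were higher (Gap43, Syp and Ttn), 4 were lower (Dcx, Notch1, Myl4 and Fabp7) and 32 did not pass, by limma with Benjamini-Hochberg adjustment over all genes at 0.05. Over all 19505 genes 24.6% were called higher, 20.5% lower and 45.2% in either direction. An unadjusted p under 0.05 was reached by 10 of the 39 genes and 50.8% of all genes, and groups did not overlap in 5 of the 39 and in 43.7% of all. The median difference, ED14.5 minus liver, was −0.06 over the 39 genes and 0.02 over all genes. With quantile normalization within the comparison 6 were called higher and 4 lower.

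The same comparison in the SL samples, which uses other arrays, called 2 higher (Gap43 and Tubb3) and 4 lower (Elavl3, Notch1, Myl4 and Dcx), against 24.4% and 21.4% of all genes and 45.8% in either direction. An unadjusted p under 0.05 was reached by 6 of 39 genes, and by 51.4% of all genes, and groups did not overlap in 5 of 39 and in 44% of all. The median difference was 0.02 over the 39 and −0.03 over all genes. Gap43, Dcx, Notch1 and Myl4 were called in both arms in the same direction, which is 4 of the 7 control calls and 4 of the 6 SL calls. The difference between the arms was tested as an interaction over all 24 arrays and called 0 of the 39 genes, with 3 at an unadjusted p under 0.05. That test called 0.0256% of all genes, and 10.6% of all genes had an unadjusted p under 0.05.

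**Figure D3:**
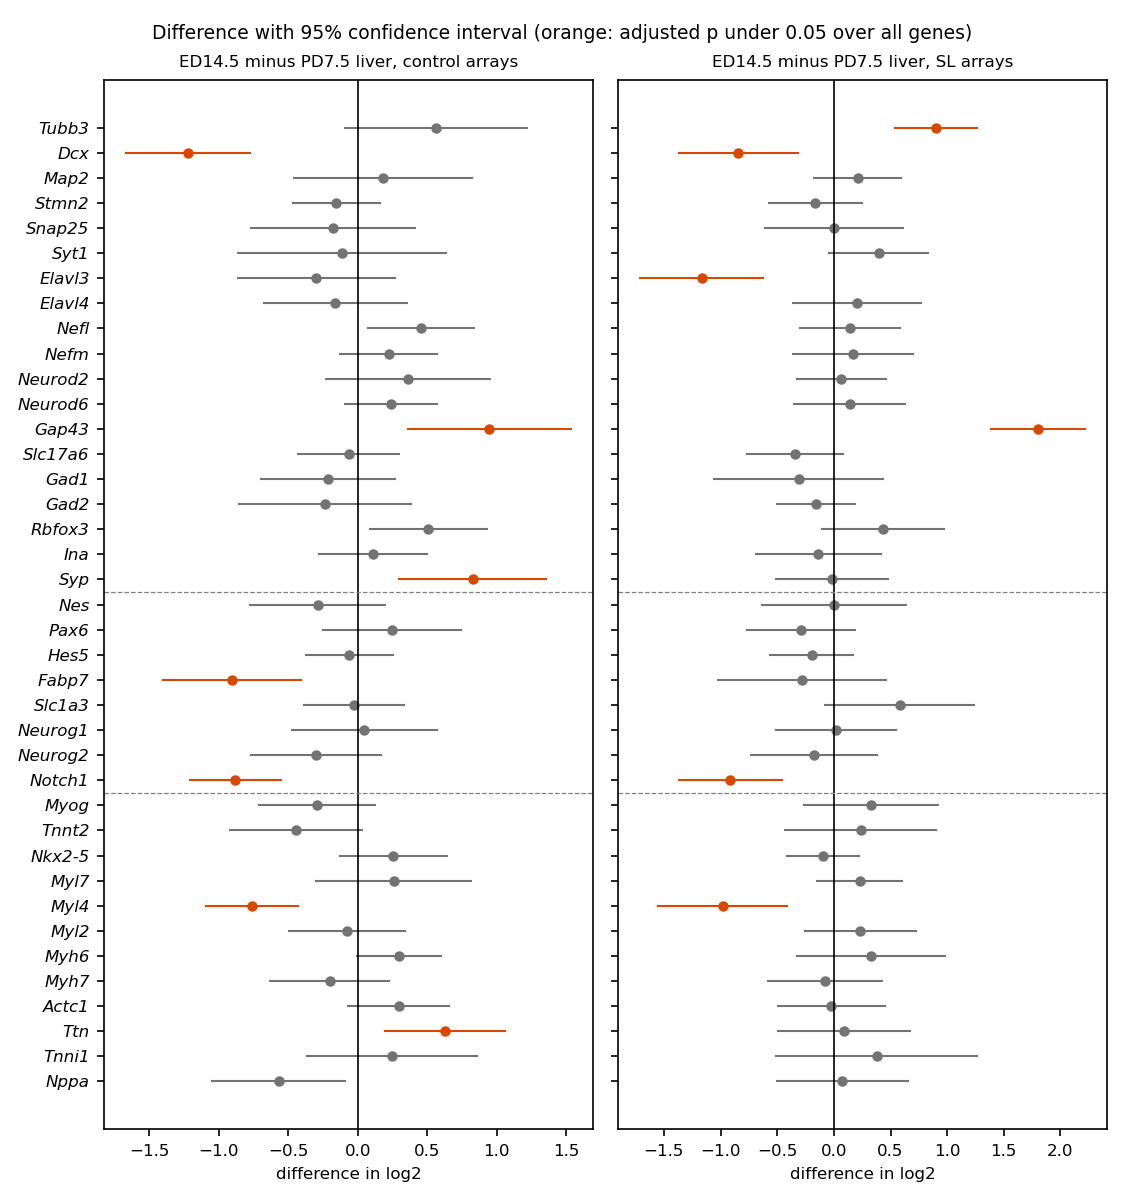
Difference in log2 value, ED14.5 minus PD7.5 liver, for each of the 39 genes (rows, by role), with 95% intervals from limma, in control and in SL arrays. Most intervals span 0. Gap43 lies at 0.95 in control and 1.80 in SL arrays, and Dcx at −1.22 and −0.84.

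Among the neuronal genes the growth cone protein Gap43 was highest in the ED14.5 SL group. In ED14.5 control replicates 1 to 4 it read 5.90, 6.16, 5.87 and 6.37, and in ED14.5 SL replicates 6.73, 6.66, 6.95 and 6.80. In liver it read 5.06, 5.30, 5.75 and 4.38 in control and 5.02, 4.71, 4.70 and 5.50 in SL replicates. Both ED14.5 groups lay above the liver arrays of their arm without overlap, and all 4 ED14.5 SL arrays, 2 ED14.5 control arrays and 1 of the 8 liver arrays were above background. Gap43 was higher at ED14.5 by 0.95 in control arrays (SE 0.262, limma adjusted p = 0.0137). In the SL arrays it was higher by 1.80 (SE 0.184, limma adjusted p = 2.31e-05), at least 1.70-fold, as its liver arrays were all below background.

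Dcx, a microtubule protein of migrating neurons, went the other way. It read 4.92, 4.25, 4.29 and 5.02 in ED14.5 control and 6.01, 5.94, 5.60 and 5.81 in control liver. The groups did not overlap, and 1 of these 8 arrays, liver replicate 1, was above background. The difference was −1.22 (SE 0.199, limma adjusted p = 0.000611). In SL arrays the values were 5.10, 4.59, 4.61 and 5.29 at ED14.5 and 5.79, 5.24, 5.70 and 6.22 in liver, with an overlap of the groups. The difference there was −0.84 (SE 0.233, limma adjusted p = 0.0134), with 1 liver array above background. At ED7.5 Dcx lay between 3.83 and 4.77 and was not above background.

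Syp, a synaptic vesicle protein, passed in the control arm. It read 5.98, 6.47, 5.45 and 5.87 at ED14.5, with replicate 2 above background, and 5.59, 4.78, 4.91 and 5.18 in liver, all below it. The groups overlapped, and the difference was 0.83 (SE 0.237, limma adjusted p = 0.0164). In SL arrays it read 5.48, 5.64, 5.83 and 5.80 at ED14.5 and 6.29, 5.72, 5.65 and 5.14 in liver, a difference of −0.02 (95% interval −0.51 to 0.47) whose sign turned with array weights and with quantile normalization. Tubb3, the neuronal tubulin, read 4.63, 5.45, 5.63 and 6.21 in ED14.5 control and 5.83, 6.03, 6.18 and 6.03 in ED14.5 SL. In liver it read 4.54, 5.07, 5.02 and 5.03 in control and 5.18, 5.41, 5.15 and 4.72 in SL replicates, all below background. The ED14.5 SL group lay above its liver group by 0.90 (SE 0.161, limma adjusted p = 0.00103), with 2 of the 4 ED14.5 arrays above background. The control groups overlapped, and the difference of 0.56 did not pass (limma adjusted p = 0.151). Without ED14.5 control replicate 1, the low array, it was 0.85 (limma adjusted p = 0.0125). In the other 7 of 8 fits that left out 1 array it did not pass, with a difference down to 0.32 and limma adjusted p up to 0.355.

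Map2, a dendritic microtubule protein, was near background in the later samples. It read 6.00, 5.83, 6.10 and 6.59 in ED14.5 control and 6.13, 5.81, 6.15 and 6.42 in ED14.5 SL, with 2 and 3 arrays above background. In liver it read 5.78, 5.56, 6.83 and 5.60 in control and 5.94, 6.27, 5.76 and 5.70 in SL replicates. The groups overlapped in both arms, and the differences of 0.19 (95% interval −0.46 to 0.83) and 0.21 (−0.18 to 0.60) did not pass. Stmn2, a growth-associated tubulin regulator, lay below background on all 8 ED14.5 arrays, at 5.45, 5.53, 5.72 and 5.55 in control and 6.06, 5.57, 5.67 and 5.73 in SL replicates. Liver read 5.59, 5.46, 5.91 and 5.93 in control and 6.23, 5.51, 6.14 and 5.81 in SL replicates, with 3 of 8 arrays above background. The differences were −0.15 (95% interval −0.47 to 0.16) and −0.16 (−0.57 to 0.25), and neither passed.

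Elavl3, a neuronal RNA-binding protein below background on every array, was called lower at ED14.5 in the SL arm, by a difference of −1.17 (SE 0.242, limma adjusted p = 0.00268). Its ED14.5 SL values were 2.88, 3.79, 2.93 and 3.77, below the liver SL values of 4.23, 4.39, 4.77 and 4.64 without overlap. In the control arm the ED14.5 arrays read 2.93, 3.30, 2.73 and 3.72, within reach of the liver's 3.07, 3.75, 3.87 and 3.18, and the difference of −0.30 did not pass (limma adjusted p = 0.386). No fold is given, as all 16 arrays were below background.

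**Figure D4:**
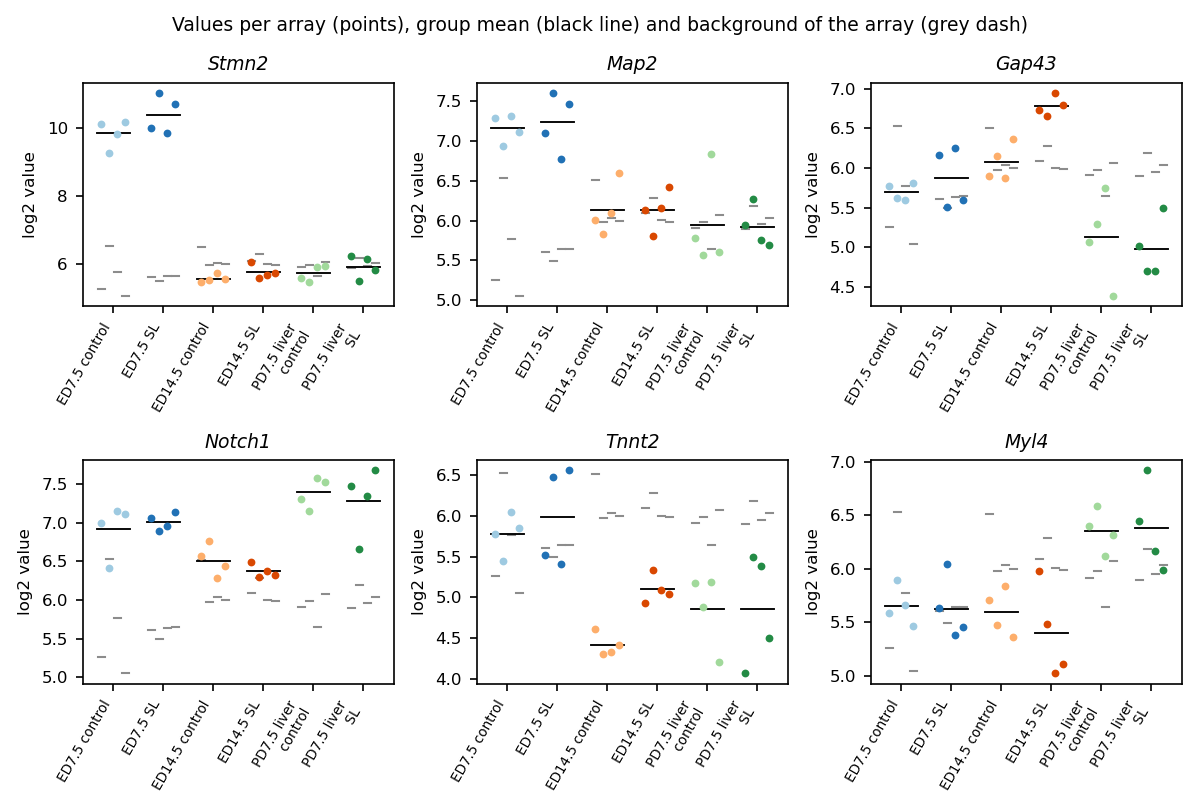
Log2 values of 6 members on each of the 24 arrays (points), by group, with the group mean (black line, n = 4) and the background of each array (grey dash). The Gap43 points of ED14.5 SL, at 6.66 to 6.95, lie above the other groups, and Stmn2 stands at 9.28 to 11.04 at ED7.5 and at 5.45 to 6.23 in the later samples.

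No progenitor gene was called higher at ED14.5 than in liver. The receptor Notch1 read 6.56, 6.76, 6.28 and 6.44 in ED14.5 control and 7.30, 7.15, 7.58 and 7.52 in control liver, without overlap. It was lower at ED14.5 by a difference of −0.88 (SE 0.147, limma adjusted p = 0.000692, 1.84-fold). In the SL arm the values were 6.49, 6.29, 6.38 and 6.32 against 7.47, 6.65, 7.34 and 7.67, again without overlap, and the difference was −0.91 (SE 0.203, limma adjusted p = 0.00393, 1.89-fold). At ED7.5 it read 6.99, 6.41, 7.15 and 7.11 in control and 7.06, 6.89, 6.95 and 7.13 in SL replicates, above background on 7 of 8 arrays. Its promoter window is the first of those printed above. Notch1 is also expressed in blood vessels and blood cells. In each arm 8 of 9 endothelial markers were lower at ED14.5 than in liver and 1 was higher. Of all genes 20.5% were lower in control and 21.4% in SL arrays. Of 7 lymphocyte markers 6 were lower in control and 7 in SL arrays, and none higher. All 12 erythroid markers were higher in each arm, as were 5 of 5 megakaryocyte markers in control and 4 of 5 in SL arrays. The part of these cells in the Notch1 difference was not tested.

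Fabp7, a fatty acid binding protein of radial glia, read 6.31, 6.46, 5.51 and 5.75 in ED14.5 control and 6.80, 6.70, 6.91 and 7.25 in control liver. The groups did not overlap, 1 ED14.5 array and all 4 liver arrays were above background, and the difference was −0.91 (SE 0.222, limma adjusted p = 0.00732). In SL arrays it read 5.96, 6.79, 5.53 and 5.63 at ED14.5 and 6.37, 6.49, 6.74 and 5.45 in liver, where the groups overlapped and the difference of −0.28 did not pass (limma adjusted p = 0.528). Nes, the intermediate filament of neural stem cells, which other dividing cells also make, read 5.47, 6.58, 6.23 and 6.18 in ED14.5 control and 6.59, 6.19, 6.37 and 6.47 in control liver. In SL arrays it read 5.77, 5.88, 6.17 and 6.25 at ED14.5 and 5.20, 5.93, 6.72 and 6.21 in liver. These groups overlapped in both arms. Hes5, a Notch target, read 6.14, 5.96, 6.31 and 6.51 in ED14.5 control and 6.38, 6.27, 6.38 and 6.28 in ED14.5 SL. Liver read 6.34, 6.12, 6.36 and 6.35 in control and 6.85, 6.57, 6.60 and 6.07 in SL replicates. The 8 liver arrays were all above background, as were 5 of the 8 ED14.5 arrays, and no difference of Nes or Hes5 from liver passed. At ED7.5 Hes5 lay between 6.03 and 6.61.

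In the muscle group Myl4, the atrial and fetal myosin light chain, was higher in liver. It read 5.71, 5.47, 5.84 and 5.36 in ED14.5 control, all below background, and 6.40, 6.59, 6.12 and 6.32 in control liver, all above it. The difference was −0.76 (SE 0.149, limma adjusted p = 0.00193), at least 1.17-fold lower at ED14.5. In SL arrays it read 5.98, 5.48, 5.02 and 5.11 against 6.45, 6.92, 6.17 and 5.99, without overlap, and was at least 1.22-fold lower (difference −0.98, SE 0.255, limma adjusted p = 0.0095). At ED7.5 it read 5.59, 5.89, 5.66 and 5.46 in control and 5.63, 6.04, 5.38 and 5.45 in SL replicates, with 4 of 8 arrays above background. Ttn, the sarcomere's spring protein, was called higher at ED14.5 in control arrays with all 8 arrays below background. It read 4.46, 4.84, 4.74 and 4.78 at ED14.5 and 3.77, 3.88, 4.64 and 4.00 in liver, and the groups overlapped. The difference was 0.63 (SE 0.192, limma adjusted p = 0.0221), and it was no longer called in 6 of the 8 fits that left out 1 array, with an adjusted p of up to 0.0608. It stayed called without ED14.5 control replicate 1 and without control liver replicate 3.

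Actc1, the cardiac actin, passed the background on 1 array in each ED14.5 group, on 0 control and 1 SL liver array, and on 3 control and 4 SL arrays at ED7.5. Its ED14.5 values were 5.61, 5.60, 5.89 and 6.22 in control and 6.29, 5.47, 5.64 and 5.92 in SL replicates. Its differences from liver of 0.29 and −0.02 did not pass. Tnnt2, the cardiac troponin T, read 5.18, 4.88, 5.19 and 4.20 in control liver and 4.62, 4.30, 4.33 and 4.42 in ED14.5 control, all below background. The groups overlapped through liver replicate 4, and the difference of −0.45 did not pass (limma adjusted p = 0.121). Without that array it was −0.66 (limma adjusted p = 0.00415). In the other 7 of 8 fits that left out 1 array it did not pass, with limma adjusted p up to 0.264. In SL arrays Tnnt2 read 4.07, 5.50, 5.38 and 4.50 in liver and 4.93, 5.33, 5.09 and 5.05 at ED14.5, a difference of 0.24 (95% interval −0.43 to 0.90). Myl7, an atrial light chain, was above background on 1 of the 24 arrays, ED7.5 control replicate 1.

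Lists of other genes from the same tissues were read beside the 39. Of 25 further skeletal muscle genes, 5 were higher and 0 lower at ED14.5 than in liver in control arrays, and 4 and 0 in SL arrays, with a median difference of 0.20 and 0.11. At least 3 of 4 arrays were above background for 3 of the 25 in each ED14.5 group, for 0 in control liver and for 1 in SL liver. Over all genes that share was 51.5% in both ED14.5 groups, 53.7% in control liver and 53.0% in SL liver, and 24.6% were called higher and 20.5% lower in control and 24.4% and 21.4% in SL arrays. Of 25 further neuronal genes, 0 were higher and 1 lower in control and 2 and 0 in SL arrays. Of 23 further progenitor and patterning genes, 3 were higher and 5 lower in control and 1 and 6 in SL arrays. Of 22 further heart genes it was 2 and 4 in control and 2 and 6 in SL arrays. Of the further neuronal genes, 3 and 4 were above background on at least 3 of 4 arrays in ED14.5 control and SL. In each liver group it was 4. For the progenitor and patterning genes it was 6 and 7 at ED14.5 and 5 and 6 in liver, and for the heart genes 5 in each of these groups.

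The largest differences upward in those lists were in 3 genes. Downward, the progenitor and patterning list reached −2.88 in control and −2.87 in SL arrays, and the heart list −1.81 and −2.06. Mylpf, the light chain of fast skeletal fibres, read 6.95, 6.94, 7.09 and 7.42 in ED14.5 control and 4.23, 4.87, 4.78 and 4.76 in control liver. All 8 ED14.5 arrays of both arms were above background and all 8 liver arrays below it, which made it at least 2.29-fold higher in control and at least 2.16-fold higher in SL arrays (differences 2.44 and 2.98, limma adjusted p = 2.13e-06 and 0.000288). At ED7.5 it was below background on all 8 arrays. Gfap, the filament of astrocytes, read 7.23, 7.60, 7.53 and 7.16 at ED14.5 and 4.89, 4.98, 5.13 and 5.72 in control liver, with all liver arrays below background. It was at least 2.78-fold higher in control and at least 3.18-fold in SL arrays (differences 2.20 and 2.64, limma adjusted p = 9.9e-06 and 1.61e-06). Tnnc1, the troponin C of heart and slow muscle, read 7.50, 7.35, 7.65 and 7.48 at ED14.5 and 5.14, 5.54, 5.51 and 5.07 in control liver, at least 3.02-fold higher at ED14.5 (difference 2.18, SE 0.144, limma adjusted p = 1.45e-06). At ED7.5 it read 9.17 to 9.94. Which cells the signal of Mylpf, Gfap and Tnnc1 came from was not tested. These 3 genes were above background on all 8 ED14.5 arrays. Of the 12 heart and skeletal muscle members, Actc1 passed it on 2 of those 8 arrays and the other 11 on none.

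Against ED7.5, the ED14.5 control arrays had lower values for 10 of the 39 genes and higher for 3, with 26.3% and 25.6% of all genes called in those directions and 51.9% in either. An unadjusted p under 0.05 was reached by 17 of 39 genes, beside 56.9% of all genes, and groups did not overlap in 9 of 39 and in 49.4% of all. The median difference, ED14.5 minus ED7.5, was −0.08 over the 39 and 0.03 over all genes, and −0.33 over the 19 neuronal genes. With quantile normalization 8 were lower and 5 higher. A fit of all 24 arrays called 11 lower and 0 higher, with 10 of the 13 genes in both, and Gap43, Slc1a3 and Ttn were not called there. Without ED7.5 control replicate 3 there were 8 calls in all. These values share the ED14.5 control arrays with the liver comparison above and with the SL comparison below.

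Stmn2 had the largest difference. It read 10.12, 9.28, 9.83 and 10.20 in ED7.5 control and 10.02, 11.04, 9.86 and 10.72 in ED7.5 SL, all above background, and 5.45 to 5.72 in ED14.5 control, all below it. It was at least 13.3-fold lower at ED14.5 (difference −4.29, SE 0.192, limma adjusted p = 2.86e-08). Of the 12 decidua markers, 11 were lower at ED14.5 and 1 was higher, beside 26.3% and 25.6% of all genes. In ED7.5 control 11 of 12 were above background, with a list median of 6.09 above it. In ED14.5 control it was 4 of 12, with a list median of −1.39. Also lower were 7 of 8 smooth muscle, 7 of 9 endothelial and 7 of 10 stellate and mesenchyme markers. In those lists 0, 2 and 2 were higher. Of 25 further neuronal genes 11 were lower and 2 higher. All 22 hepatocyte and 12 erythroid markers were higher. The part of decidua or of these other tissues in the Stmn2 value was not tested. Snap25, Syt1, Nefl and Nefm were below background at both ages, and Syp passed it on 2 ED7.5 control arrays and 1 ED14.5 control array.

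Map2 read 7.29, 6.94, 7.32 and 7.12 in ED7.5 control and 7.10, 7.60, 6.78 and 7.46 in ED7.5 SL, above background on all 8, and was lower at ED14.5 by a difference of −1.03 (SE 0.17, limma adjusted p = 0.000463). Tnnt2 read 5.78, 5.44, 6.05 and 5.85 in ED7.5 control, with 3 of 4 arrays above background, and 4.62, 4.30, 4.33 and 4.42 at ED14.5, all below it. The difference was −1.36 (SE 0.144, limma adjusted p = 1.75e-05). Gad1, the GABA synthesis enzyme, read 5.72, 5.89, 5.73 and 5.18 in ED7.5 control, 2 of 4 above background, and 4.38, 4.61, 4.26 and 4.95 at ED14.5, a difference of −1.08 (limma adjusted p = 0.000793). None of these pairs of groups overlapped. Notch1 did not pass between the ages.

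The other called genes moved less. Nes read 7.23, 6.32, 6.82 and 7.32 in ED7.5 control and 6.96 to 7.34 in ED7.5 SL arrays. It was lower at ED14.5 by a difference of −0.80 (limma adjusted p = 0.0302). Fabp7 read 7.05, 6.47, 6.56 and 6.69 in ED7.5 control and 5.96 to 6.65 in ED7.5 SL arrays, and was lower at ED14.5 than in ED7.5 control by a difference of −0.68 (limma adjusted p = 0.0249). Ina, Neurog1, Nefm and Gad2 were lower by differences of −0.87, −0.83, −0.61 and −0.76 with all 8 arrays below background. Gap43, Slc1a3 and Ttn were higher by 0.37, 0.48 and 0.44, and Gap43 passed the background on 2 arrays at each age. With 1 array left out, Gap43, Ttn, Slc1a3, Nes and Gad2 were no longer called in 5 of 8 fits, Nefm in 4 and Fabp7 in 3, with adjusted p of up to 0.125. For Nefm the arrays were the 4 of ED14.5, and for Fabp7 ED7.5 replicate 1 and ED14.5 replicates 3 and 4.

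Between SL and control samples none of the 39 genes passed at any age by limma with Benjamini-Hochberg adjustment. An unadjusted p under 0.05 was reached by 2 of 39 genes at ED7.5, 2 at ED14.5 and 4 in liver. Of all genes 0.00513% were called at ED7.5, 0.0513% at ED14.5 (0.0308% higher and 0.0205% lower) and 0 in liver, and 5.49%, 11.4% and 7.91% had an unadjusted p under 0.05. Groups did not overlap in 0, 2 and 1 of the 39 genes, against 3.05%, 7.98% and 4.43% of all genes. The median difference, SL minus control, was −0.02, 0.01 and 0.00 over the 39, and 0.00 over all genes at each age. Over the 19 neuronal genes it was 0.04, 0.15 and 0.04.

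**Figure D5:**
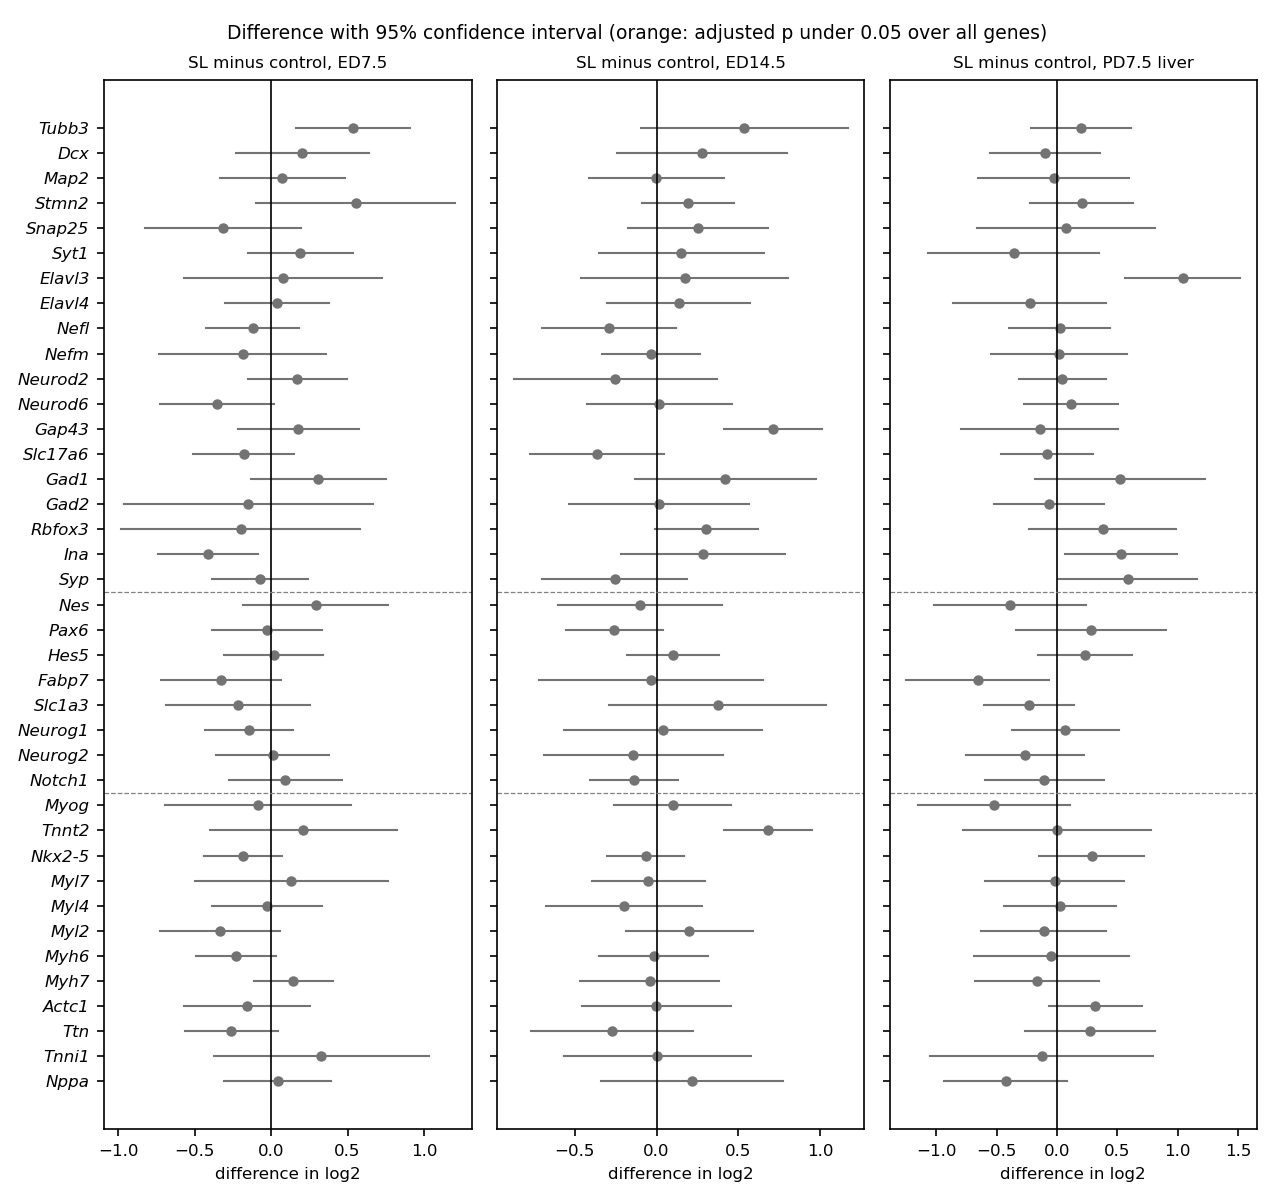
Difference in log2 value, SL minus control, for each of the 39 genes at ED7.5, ED14.5 and in PD7.5 liver, with 95% intervals from limma (4 arrays a group). At ED14.5 Tnnt2 and Gap43 lie at 0.68 and 0.71, and in liver Elavl3 lies at 1.04, with no adjusted p under 0.05.

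At ED14.5 the smallest p-values were those of Tnnt2 and Gap43. Tnnt2 read 4.62, 4.30, 4.33 and 4.42 in control and 4.93, 5.33, 5.09 and 5.05 in SL arrays, without overlap and with all 8 below background. The difference was 0.68 (SE 0.119, limma adjusted p = 0.0845), and no fold is given. Gap43, with the values given above, averaged 6.07 ± 0.236 in control and 6.78 ± 0.122 in SL arrays (SD, n = 4), also without overlap. The difference was 0.71 (SE 0.133, limma adjusted p = 0.0882). A new fit without the dimmest 33% of genes, which also has fewer tests, gave Gap43 a limma adjusted p of 0.0405 and Tnnt2 one of 0.0356. An intensity trend with a robust prior gave Gap43 one of 0.0322. The cause of these shifts was not tested. Over the alternatives on all 8 arrays the limma adjusted p ran from 0.0322 to 0.267 for Gap43 and from 0.0356 to 0.45 for Tnnt2.

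The other genes named by p at this age were below background or overlapped. Tubb3, with 1 control and 2 SL arrays above background, differed by 0.54 (95% interval −0.09 to 1.17). Rbfox3, a splicing factor of mature neurons, read 3.09, 3.29, 3.49 and 3.68 in control and 3.72, 3.84, 3.70 and 3.50 in SL arrays, a difference of 0.30 (limma adjusted p = 0.451). Slc17a6 read 3.43, 2.84, 3.15 and 3.20 against 2.75, 3.18, 2.85 and 2.38, and Pax6, a transcription factor of neural progenitors, 5.02, 4.81, 4.69 and 4.41 against 4.47, 4.41, 4.43 and 4.58. Their differences of −0.36 and −0.26 had intervals that included 0. Mylpf, Gfap and Tnnc1 differed by 0.03, 0.31 and 0.15 between SL and control at ED14.5, with adjusted p from 0.484 to 0.968.

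At ED7.5 Tubb3 read 6.52, 5.67, 6.02 and 5.96 in control and 6.45, 6.67, 6.63 and 6.54 in SL arrays. The SL arrays were all above background, as were 3 control arrays, and the groups overlapped through control replicate 1. The difference was 0.53 (SE 0.167, limma adjusted p = 0.783, 1.45-fold). Ina, a neuronal intermediate filament, read 4.06, 3.48, 3.99 and 3.93 in control and 3.41, 3.40, 3.34 and 3.66 in SL arrays, a difference of −0.41 (limma adjusted p = 0.818) with all 8 below background. Stmn2 averaged 9.86 ± 0.421 in control and 10.41 ± 0.565 in SL arrays (SD, n = 4), a difference of 0.55 whose interval ran from −0.10 to 1.20. Neurod6, Myh6, Ttn and Myl2, all below background, differed by −0.35, −0.23, −0.26 and −0.33. Neurod6 read 3.47, 3.33, 3.14 and 3.66 in control and 3.47, 2.87, 3.03 and 2.81 in SL replicates. The values of the heart genes overlapped between the groups. Myh6, the myosin of the atrium, read 4.66, 4.65, 4.77 and 4.40 in control and 4.42, 4.56, 4.27 and 4.31 in SL replicates. Ttn read 4.45, 4.18, 3.95 and 4.48 against 4.15, 3.96, 4.02 and 3.90. Myl2, the ventricular light chain, read 3.44, 2.61, 2.85 and 3.11 against 2.48, 2.81, 2.63 and 2.76.

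In liver Elavl3 had the smallest p. It read 3.07, 3.75, 3.87 and 3.18 in control and 4.23, 4.39, 4.77 and 4.64 in SL arrays, without overlap, all below background, and the difference was 1.04 (SE 0.213, limma adjusted p = 0.509). Fabp7, above background on all 4 control and 3 of 4 SL arrays, differed by −0.66 (95% interval −1.25 to −0.06, limma adjusted p = 0.623), and its low SL array was replicate 4 at 5.45. Ina read 2.93, 2.73, 3.02 and 2.88 against 3.20, 2.93, 3.69 and 3.86, a difference of 0.53 (limma adjusted p = 0.62). Syp, at 5.59, 4.78, 4.91 and 5.18 against 6.29, 5.72, 5.65 and 5.14, differed by 0.59 (limma adjusted p = 0.628). Myog read 4.61, 4.62, 4.96 and 5.27 against 3.49, 4.55, 4.75 and 4.58, and Nppa 4.96, 5.08, 4.99 and 4.36 against 4.73, 3.89, 4.71 and 4.36. Their differences of −0.52 and −0.43 did not pass.

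The interaction asked whether the SL difference at ED14.5 differed from that in liver. An unadjusted p under 0.05 was reached by 3 of the 39 genes and by 10.6% of all genes. The 3 genes with an unadjusted p under 0.05 were Syp, at −0.84 (SE 0.308, limma adjusted p = 0.329), Gap43, at 0.85 (SE 0.322, limma adjusted p = 0.342), and Elavl3, at −0.87 (SE 0.409, limma adjusted p = 0.462). For Gap43 the SL difference was 0.71 at ED14.5 and −0.14 in liver. For Syp it was −0.26 and 0.59, and for Elavl3 0.17 and 1.04.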

How the data were processed

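Total RNA was extracted with Trizol from snap-frozen samples and 6 µg was labelled for 1-colour Affymetrix arrays, per the labels' protocols. The deposited values are on a log2 scale and were made by the authors with RMA, which corrects background, normalizes by quantiles and summarises probes, in the oligo package, per the submitters' processing notes. The sources used here give no version and do not state a joint run of the 24 arrays. RMA makes the arrays' distributions alike, and it can understate differences near background. No further normalization was applied.

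Of 29129 probe sets, 22206 were not control features and 19572 named exactly 1 gene. For the 55 genes with several, the brightest over all arrays was used. Differences were fitted with limma 3.58.1 in R 4.3.3 (lmFit and eBayes, two-sided, Benjamini-Hochberg over 19505 genes, threshold 0.05) on the arrays of the groups compared, and the interaction on all 24 arrays. Files were read in with the data.table package (1.17.8), and the fit was tested on simulated data. Precision is limited by the number of arrays. The median standard error was 0.165 and 0.171 for ED14.5 against liver in control and SL, 0.149 between the embryonic ages, 0.144, 0.143 and 0.187 for SL against control at ED7.5, at ED14.5 and in liver, and 0.251 for the interaction. A bound ("at least") sets the bright group's mean against the dim group's mean background.

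The members, the 22 gene lists and the alternatives were chosen with earlier results of these data known, so the lists got no test. Values per array are given for members above background on at least 3 of 4 arrays of an ED14.5 or liver group and for the 6 members with the smallest p in each SL comparison, and for others called between ages. From each other list the text could name Alb and at most 3 genes in a direction, those with the largest called differences. The highest correlation between any 2 arrays was 0.993 and none were identical. Alternatives were array weights, an intensity trend with a robust prior, quantile normalization, a fit over 24 arrays (for the interaction, over the 16 ED14.5 and liver arrays), a block for the replicate number, removal of the dimmest 33% of genes, the mean of several probe sets, other backgrounds and the removal of each array in turn. No protein sequences were used here.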

Additional observations from a re-analysis of the deposited data

Results flagged for a closer look

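In 6 of 126 groups of 4 arrays tested over 21 members, the lowest array stood apart from the other 3 by more than Dixon's 95% critical value allows (the gap to the nearest array over the range of the group). Chance flags about 1 in 20 groups. In control liver these were Tubb3 in replicate 1, at 4.54, Hes5 in replicate 2, at 6.12, and Nppa in replicate 4, at 4.36. Hes5 was above background on that array and the other 2 values were below it. In SL liver Myog was low in replicate 1, at 3.49. In ED14.5 control Myl2 was low in replicate 1, at 2.51, the array with the highest background of that group. In ED7.5 SL Rbfox3 was low in replicate 3, at 3.12. The last 3 values were all below background.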

How the results depend on the processing

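The counts of called members stayed within 1.5 times under most alternatives. For ED14.5 minus ED7.5 the count was 7 without the dimmest 33% of genes, where fewer members were tested, and 8 to 13 with 1 array left out. For SL minus control at ED14.5 it was 1 with an intensity trend and robust prior and 2 in a new fit without the dimmest genes. The cause was not tested for either. With 1 array left out it was 6 to 10 for ED14.5 minus liver in control, 6 to 8 in SL, and 0 in every SL comparison and the interaction. The numbers of members above background depended on the definition. With the 95th percentile of the negative controls they were 1 and 2 in the ED7.5 control and SL groups and 0 in the ED14.5 and liver groups. With the median they were 18 and 17 at ED7.5, 11 and 12 at ED14.5, and 15 and 13 in liver. With all 4 arrays required they were 2 and 9 at ED7.5, 1 and 2 at ED14.5, and 5 and 2 in liver, in control and SL groups. With 1 array left out and the other 3 required they ran from 2 to 9 and 9 to 10 at ED7.5, 1 to 2 and 2 to 4 at ED14.5, and 5 to 5 and 2 to 4 in liver. In the SL arm the ED14.5 minus liver difference of Syp turned to 0.037 with array weights and 0.11 with quantile normalization, and ran from −0.20 to 0.18 with 1 array left out. That of Tnnt2 ran from −0.030 to 0.45, and was negative without SL liver replicate 1. The cause was not tested. With group means removed, same-numbered arrays correlated with r from −0.17 to 0.12 over the 6 comparisons, and the main fits used no pairing. Such correlations cannot show whether same-numbered samples share a litter or a grandfather. With the replicate block 8, 6 and 12 members were called for ED14.5 minus liver in control, in SL, and for ED14.5 minus ED7.5, and 0 in each SL comparison and the interaction. For ED14.5 minus ED7.5 Gap43, Nes and Ttn were not called with the block, and 10 of the 13 genes were called in both fits. Signal near or below background limits what can be said of most members.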
